A study of Mus musculus with 2 samples.

Results

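The 50 genes of the mouse proteasome family, taken as every row of the read count table whose symbol begins with Psma, Psmb, Psmc, Psmd, Psme, Psmf or Psmg and a digit, were compared between 2 libraries of γδ T cells from spleen. The table held 24091 genes. Of the 50, 48 reached a mean of 1 CPM, the count per 1000000 counts after scaling the libraries to each other, and so did 11715 genes of the whole table. The expanded library came from γδ T cells sorted by flow cytometry, activated with anti-CD3 fixed to the plate and anti-CD28 in solution, and grown with recombinant mouse IL-2 at 100 U/ml for 5 days. The other library was labelled as freshly isolated γδ T cells. The protocol text was the same for both, so the uncultured state of the freshly isolated library rests on its treatment label and the series design. Strain, age, sex and any pooling of animals were not given in the labels used here. Activation, culture and IL-2 came together and could not be told apart.

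The proteasome degrades proteins tagged with ubiquitin. Its core particle is a barrel of α subunits (Psma) and β subunits (Psmb), of which Psmb5, Psmb6 and Psmb7 carry the standard catalytic sites. The regulatory particle that caps the barrel has a base, with an unfolding ring of ATPases (Psmc), and a lid, which removes the ubiquitin chain (Psmd). In lymphocytes and after interferon γ, Psmb8, Psmb9 and Psmb10 can take the places of Psmb5, Psmb6 and Psmb7 to form the immunoproteasome, which is known for making peptides for MHC class I. Activators of the PA28 type (Psme) are caps that use no ATP, and the Psmg genes encode chaperones that assemble the core.

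Each group had a single library, so replicate error is unknown and differences were not tested. Total counts were 22204099 in the expanded and 20379385 in the freshly isolated library, and 1 count equalled 0.0476 and 0.0465 CPM in those libraries. Intervals are exact Clopper-Pearson 95% intervals and cover counting error only. Levels of Cd3d, Cd3e and Cd3g were near each other in the 2 libraries (Cd3e at 688 CPM in expanded and 734 CPM in freshly isolated cells). Cd247, of the same marker list, was lower after expansion, at 243 CPM against 447 CPM in freshly isolated cells. Of 8 T cell markers, 3 (Cd2, Cd5 and Lck) were at least 2-fold lower after expansion and 0 higher, and the constant genes of the receptor chains were not analysed here. The 2 libraries also differed in markers of other cells and of cell division, whose sums below cover every listed marker in the table. Among 13 measured macrophage and monocyte markers, expanded cells had 12 at least 2-fold lower, with summed levels of 24.4 CPM there and 975 CPM in the freshly isolated library, and C1qa, C1qb, C1qc, Cybb, Lyz2, Sirpa, Spic and Vcam1 stood at 0 counts in expanded cells. All 8 measured B and plasma cell markers were lower, with sums of 3.95 CPM in expanded and 938 CPM in freshly isolated cells and with Blnk, Cd79a, Jchain and Ms4a1 at 0 counts in expanded cells. All 7 dendritic cell and MHC class II markers measured were lower too (sums of 14.6 CPM in expanded and 1305 CPM in freshly isolated cells, Flt3 at 0 counts in expanded cells), and all 5 erythroid markers had 0 counts in expanded cells, against a sum of 87.2 CPM in freshly isolated cells. Of 9 proliferation genes, 8 were at least 2-fold higher and Pcna was 1.65-fold higher. Their sums were 3326 CPM in expanded and 378 CPM in freshly isolated cells. The part of these differences in the values below was not tested. In bulk samples, fewer cells of a type and less RNA per cell cannot be told apart.

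Transcripts of the standard proteasome were higher in the expanded library. Those of the immunoproteasome and of PA28 αβ differed by less than 2-fold, as did 6164 of the 11715 measured genes. Among the 48 measured members, 30 (62.5%) reached 2-fold higher levels after expansion, where 22.4% of all measured genes did, and 1 (2.08%) reached 2-fold lower levels, where 25.0% of all measured genes did. The log2 fold (expanded over freshly isolated, prior count 2) had a median of 1.19 over the members and 0.04 over all measured genes. The quartiles of the members were 0.70 and 1.46. At a bar of 1.5-fold, 37 members were higher, against 33.0% of all measured genes, and 1 was lower, against 32.9%. In all, 45 of 48 members had a log2 fold above 0, against 51.2% of all measured genes. For 28 of the members the whole counting interval lay above 2-fold, as it did for 2196 of the 11715 measured genes. All members together took 0.800% of the counts in the expanded library (interval 0.797 to 0.804) and 0.419% in the freshly isolated library (interval 0.417 to 0.422). With libraries scaled by total count, 24 members were at least 2-fold higher. The members nearest the 2-fold bar were Psmb3 at a log2 fold of 1.02 and Psmg2 at 0.99.

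**Figure D1:**
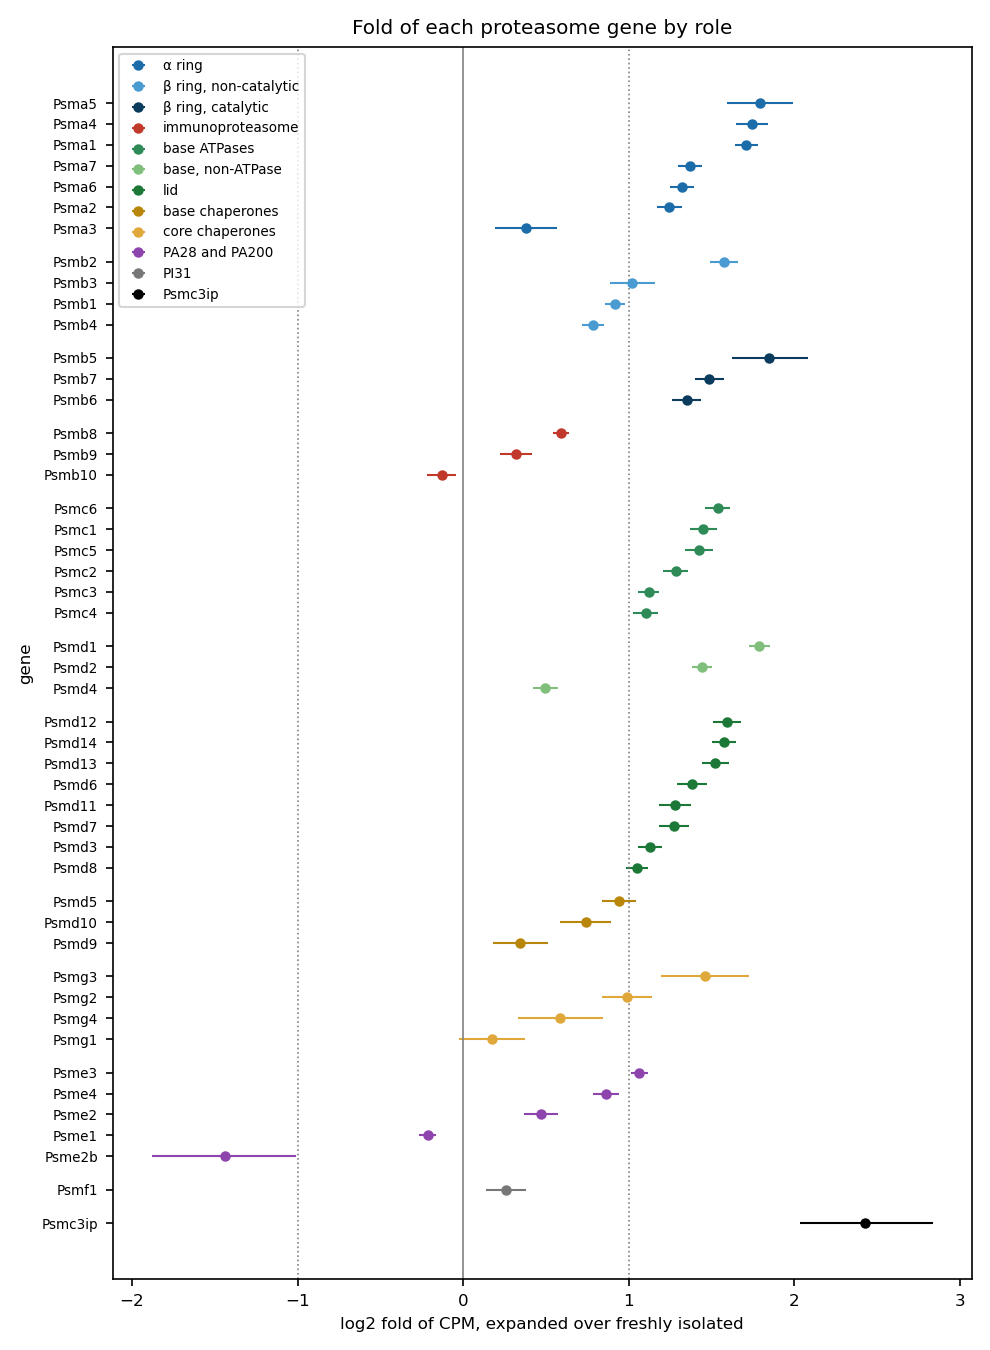
Log2 of the ratio of CPM, expanded over freshly isolated, for each of the 48 measured members (points), grouped by role (colours), with exact 95% counting intervals (bars); the solid line marks no difference and the dotted lines 2-fold. Base ATPases and lid subunits lie right of the upper 2-fold line, and the immunoproteasome genes Psmb8, Psmb9 and Psmb10 lie between the 2-fold lines.

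The α ring forms the outer rings of the core and gates the entry to it. Of its 7 measured genes, 6 were at least 2-fold higher in expanded cells (median log2 fold 1.37), against 22.4% of all measured genes. Psma5 stood at 44.2 CPM in expanded and 12.8 CPM in freshly isolated cells, 3.46-fold higher (interval 3.02 to 3.97). Psma4 stood at 182 CPM in expanded and 54.3 CPM in freshly isolated cells, 3.35-fold higher. Psma1 stood at 317 CPM in expanded and 96.8 CPM in freshly isolated cells, 3.27-fold higher. Psma7, Psma6 and Psma2 followed at 2.58-fold, 2.50-fold and 2.37-fold. The exception was Psma3, at 25.6 CPM in expanded and 19.7 CPM in freshly isolated cells, 1.30-fold higher (interval 1.14 to 1.48). Its deposited span overlaps 3110056K07Rik on the other strand, and the use of strand in counting was not given in the sources used here. Psma8, the testis form of an α subunit, had 4 counts in each library and was left out of the folds.

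The β subunits that carry no catalytic site went less uniformly. Psmb2 stood at 208 CPM in expanded and 69.9 CPM in freshly isolated cells, 2.97-fold higher, whereas Psmb3 was 2.03-fold higher at 62.5 CPM in expanded and 30.8 CPM in freshly isolated cells. Psmb1 (306 CPM in expanded and 162 CPM in freshly isolated cells, 1.89-fold) and Psmb4 (231 CPM in expanded and 134 CPM in freshly isolated cells, 1.72-fold) stayed under 2-fold. These last 2 had the highest levels per length of the 7 standard β genes in both libraries. Over the whole standard core, α and β together, 11 of 14 measured genes were at least 2-fold higher, against 22.4% of all measured genes. The median log2 fold of the core was 1.36.

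The 3 standard catalytic subunits were all above 2-fold, where 22.4% of all measured genes were at least 2-fold higher. Psmb5, the chymotrypsin-like subunit (GRCm38 chromosome 14, 54614120 to 54617995), stood at 34.0 CPM in expanded and 9.43 CPM in freshly isolated cells, 3.60-fold higher (interval 3.08 to 4.23). Psmb7, the trypsin-like subunit (chromosome 2, 38588046 to 38643906), stood at 189 CPM in expanded and 67.5 CPM in freshly isolated cells, 2.80-fold higher (interval 2.63 to 2.97). Psmb6, the caspase-like subunit (chromosome 11, 70525357 to 70527858), stood at 171 CPM in expanded and 67.0 CPM in freshly isolated cells, 2.55-fold higher (interval 2.40 to 2.71).

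None of their 3 immunoproteasome counterparts was 2-fold apart, and neither were 6164 of the 11715 measured genes. Psmb8, the counterpart of Psmb5 (chromosome 17, 34198195 to 34201454), stood at 416 CPM in expanded and 277 CPM in freshly isolated cells, 1.504-fold higher (interval 1.45 to 1.55). Psmb9, the counterpart of Psmb6 (chromosome 17, 34182099 to 34187330), stood at 93.6 CPM in expanded and 75.1 CPM in freshly isolated cells, 1.25-fold higher (interval 1.17 to 1.33). Psmb10, the counterpart of Psmb7 (chromosome 8, 105935728 to 105938392), stood at 97.2 CPM in expanded and 106 CPM in freshly isolated cells, a ratio of 0.914 (interval 0.861 to 0.971). The counting intervals of the 3 immunoproteasome folds did not overlap those of the 3 standard catalytic folds. These intervals are narrow at such counts and hold no replicate error, so the lack of overlap is no test of a difference. Psmb11, the catalytic subunit of the thymus, had 0 counts in both libraries, which allows up to 0.143 CPM in expanded and 0.139 CPM in freshly isolated cells (3 counts).

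The balance between both kinds of catalytic subunit can be read within each library and does not depend on the scaling between libraries. Immunoproteasome genes took 60.7% of the counts of the 6 catalytic genes in expanded cells (12764 of these counts against 8275 from the standard genes, interval 60.0 to 61.3) and 76.1% in freshly isolated cells (9867 against 3099, interval 75.4 to 76.8). The share was lower in expanded cells for each pair. Psmb8 took 92.5% of the counts of Psmb8 and Psmb5 in expanded and 96.7% in freshly isolated cells. For Psmb9 with Psmb6 the share was 35.4% in expanded and 52.8% in freshly isolated cells. For Psmb10 with Psmb7 it was 34.0% in expanded and 61.2% in freshly isolated cells, the widest gap of the 3 pairs in percentage points. The ratio of immunoproteasome to standard counts was 2.40 times as high in freshly isolated as in expanded cells for Psmb8 with Psmb5. It was 2.05 times as high for Psmb9 with Psmb6 and 3.06 times for Psmb10 with Psmb7. Expressed per kilobase of the deposited gene length, the summed ratio of immunoproteasome to standard genes was 2.03 in expanded and 4.19 in freshly isolated cells, so the immunoproteasome genes stood above the standard ones in both libraries on that scale. The ratio for Psmb9 to Psmb6 alone was 0.705 in expanded and 1.44 in freshly isolated cells. For Psmb10 to Psmb7 it was 1.31 in expanded and 4.02 in freshly isolated cells, so per kilobase Psmb10 stood above Psmb7 in both. For Psmb8 to Psmb5 it was 8.74 in expanded and 20.9 in freshly isolated cells. The summed markers of macrophages and of B cells, cell types that also express immunoproteasome genes, were 24.4 and 3.95 CPM in expanded cells, against 975 and 938 CPM in freshly isolated cells, and their part in the balance was not tested.

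**Figure D2:**
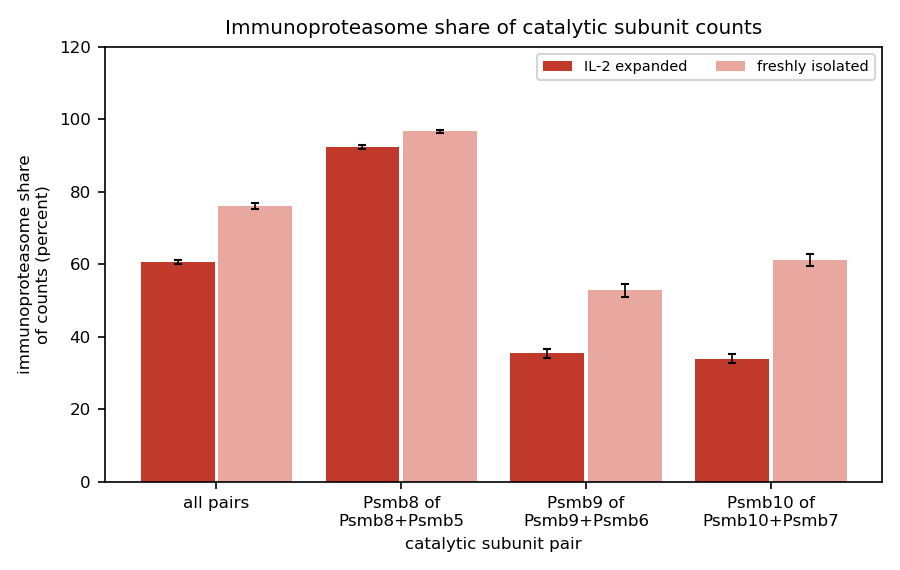
Share of counts (percent, y axis) that came from the immunoproteasome gene in all 3 pairs together and in each pair (x axis), in expanded cells (dark bars) and freshly isolated cells (light bars), with exact 95% counting intervals. All pairs together gave 60.7% in expanded and 76.1% in freshly isolated cells, and the dark bar is the shorter one in every pair.

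The stretch of 250 bases before the annotated start is shown for the catalytic genes with an entry in the RefSeq promoter table (build GRCm38.p6), since these genes separate the standard from the immune form, and for the lid gene Psmd12, which holds both forms of the first motif. In the first 3 sequences capitals mark TGACNNNGC or TGAGNNNGC on either strand, letters like those of the antioxidant response element that NRF1 binds. The last 3, of the immunoproteasome genes, have no capitals, since they held neither those motifs nor a GAAA pair spaced by any 2 bases on either strand, letters like those bound by interferon regulatory factors.
Psmb5 (chr14:54617996-54618245, minus strand): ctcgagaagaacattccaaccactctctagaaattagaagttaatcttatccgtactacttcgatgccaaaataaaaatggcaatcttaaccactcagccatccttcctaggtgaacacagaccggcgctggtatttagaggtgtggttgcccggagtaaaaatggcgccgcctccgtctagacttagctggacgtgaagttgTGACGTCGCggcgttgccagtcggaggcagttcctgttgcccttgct
Psmb6 (chr11:70525107-70525356, plus strand): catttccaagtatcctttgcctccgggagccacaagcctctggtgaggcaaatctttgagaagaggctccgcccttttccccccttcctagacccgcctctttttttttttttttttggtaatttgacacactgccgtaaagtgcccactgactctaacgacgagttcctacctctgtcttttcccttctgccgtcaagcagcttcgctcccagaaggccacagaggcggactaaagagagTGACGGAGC
Psmd12 (chr11:107479278-107479527, plus strand): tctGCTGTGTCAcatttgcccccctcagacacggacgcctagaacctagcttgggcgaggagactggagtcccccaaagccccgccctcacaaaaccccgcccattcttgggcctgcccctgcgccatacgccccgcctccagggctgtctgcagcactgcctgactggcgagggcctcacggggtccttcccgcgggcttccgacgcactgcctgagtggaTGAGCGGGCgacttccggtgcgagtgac
Psmb8 (chr17:34197945-34198194, plus strand): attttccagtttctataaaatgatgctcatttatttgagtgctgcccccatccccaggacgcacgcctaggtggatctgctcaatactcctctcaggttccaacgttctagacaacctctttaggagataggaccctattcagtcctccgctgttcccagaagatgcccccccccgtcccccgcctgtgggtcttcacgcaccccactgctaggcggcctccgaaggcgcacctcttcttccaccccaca
Psmb9 (chr17:34187331-34187580, minus strand): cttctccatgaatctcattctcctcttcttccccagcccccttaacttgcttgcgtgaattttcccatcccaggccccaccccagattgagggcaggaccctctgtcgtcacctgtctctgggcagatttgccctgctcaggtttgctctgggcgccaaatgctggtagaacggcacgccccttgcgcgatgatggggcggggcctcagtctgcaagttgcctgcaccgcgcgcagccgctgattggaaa
Psmb10 (chr8:105938393-105938642, minus strand): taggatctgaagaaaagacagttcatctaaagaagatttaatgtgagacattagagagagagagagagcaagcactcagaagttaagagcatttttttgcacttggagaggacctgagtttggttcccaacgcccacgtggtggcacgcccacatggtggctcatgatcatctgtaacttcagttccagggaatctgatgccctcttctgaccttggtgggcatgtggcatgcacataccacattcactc

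The table matched 42 members with 45 windows, each of 250 bases before and 50 after a start. Psma8, Psmb1, Psmb2, Psmb7, Psmc3, Psmd3, Psmd7 and Psmg2 had no entry. At least 1 of the antioxidant-like motifs lay in 13 of the 27 windows of the standard core, ATPase, base and lid genes (48.1%), in 0 of 3 windows of the immunoproteasome genes and 0 of 3 of PA28 αβ, and in 27.8% of all 32851 windows. TGAGNNNGC alone was in 40.7% of the standard windows and 17.6% of all windows, while TGACNNNGC was in 14.8% and 12.4% of them. Psmb5 held TGACGTCGC with its first base 47 bases before the start, and Psmb6 held TGACGGAGC 9 bases before it. The spaced GAAA pair lay in 2 of the 27 standard windows, in no immunoproteasome window, in 1 PA28 αβ window and in 3.44% of all windows. That match was in Psme1, as TTTCGCTTTC from base 10 after the start. CCAAT was in 37.0% of the standard windows and 37.4% of all windows, and GGGCGG, the GC box, was in 55.6% and 35.7% of them. These matches describe letters in the windows, and neither a match nor the lack of one bears on binding.

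The ATPases of the base unfold the substrate and open the gate of the core. All 6 were at least 2-fold higher in expanded cells, against 22.4% of all measured genes. Their folds ran from 2.15-fold for Psmc4 to 2.90-fold for Psmc6 (median log2 fold 1.35, SD 0.18 between the 6 genes). Psmc6 stood at 264 CPM in expanded and 90.8 CPM in freshly isolated cells. Psmc4 stood at 205 CPM in expanded and 95.7 CPM in freshly isolated cells. Their levels per length were close to each other in both libraries, from 99.4 to 178 CPM per kilobase in expanded and from 46.3 to 81.8 CPM per kilobase in freshly isolated cells. Psmc3ip, whose symbol fits the same pattern, is not a proteasome subunit but a partner of Psmc3 known for a role in homologous recombination. It had the highest fold of all 48, at 15.7 CPM in expanded and 2.93 CPM in freshly isolated cells, 5.36-fold (interval 4.09 to 7.14). Its span shares 67 bases with Mlx on the other strand.

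Of the 14 Psmd genes, 10 were at least 2-fold higher (median log2 fold 1.27), against 22.4% of all measured genes. Psmd1 and Psmd2, the large scaffold subunits of the base, were 3.45-fold (396 CPM in expanded and 115 CPM in freshly isolated cells) and 2.71-fold higher (393 CPM in expanded and 145 CPM in freshly isolated cells). Psmd4, a ubiquitin receptor of the base, was 1.41-fold higher at 162 CPM in expanded and 115 CPM in freshly isolated cells (interval 1.34 to 1.48). All 8 lid genes were at least 2-fold higher. The lowest was Psmd8 at 2.07-fold (interval 1.97 to 2.16), with 262 CPM in expanded and 127 CPM in freshly isolated cells. The highest was Psmd12 at 3.01-fold, with 211 CPM in expanded and 70.0 CPM in freshly isolated cells. Scaled by total count, Psmd8 (log2 fold 0.89) and Psmd3 (log2 fold 0.97) were under 2-fold. The SD of the log2 fold was 0.20 between the 8 lid genes, against 0.49 between the 7 α genes and 2.185 between all measured genes. The α value includes Psma3, the lowest of the 7 at a log2 fold of 0.38. Log2 folds of all measured genes ran from -13.0 to 14.8, so extreme values widen that SD. Psmd14, the deubiquitinase of the lid, stood at 287 CPM in expanded and 96.3 CPM in freshly isolated cells, 2.98-fold higher.

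Psmd5, Psmd9 and Psmd10 are not subunits of the finished particle but chaperones that assemble the base, and none reached 2-fold. Psmd5 stood at 105 CPM in expanded and 54.7 CPM in freshly isolated cells, Psmd10 at 43.3 CPM in expanded and 25.9 CPM in freshly isolated cells, and Psmd9 at 32.3 CPM in expanded and 25.5 CPM in freshly isolated cells. Among the core chaperones, Psmg3 was 2.75-fold higher (20.4 CPM in expanded and 7.43 CPM in freshly isolated cells) and Psmg2 1.98-fold (51.9 CPM in expanded and 26.2 CPM in freshly isolated cells). Psmg4 was 1.502-fold higher, at 14.9 CPM in expanded and 9.94 CPM in freshly isolated cells. The counting interval of Psmg1, from 0.984 to 1.29, held no difference (21.2 CPM in expanded and 18.8 CPM in freshly isolated cells). Over the 7 chaperones of both kinds the median log2 fold was 0.74, and over the 31 genes of the standard core, ATPases, base and lid it was 1.37, with 27 of the 31 at least 2-fold higher. Pomp, which guides the maturation of the core and lies outside the symbol pattern, stood at 245 CPM in expanded and 87.6 CPM in freshly isolated cells, 2.80-fold higher. The list of assembly factors and inhibitors joins Pomp to the Psmg genes, Psmd5, Psmd9, Psmd10 and Psmf1. In it, 2 of 9 measured genes (22.2%) were at least 2-fold higher and 0 lower (median log2 fold 0.74). The shares over all measured genes were 22.4% and 25.0%. The inhibitor gene Psmf1, which encodes PI31, was 1.19-fold higher (57.3 CPM in expanded and 48.0 CPM in freshly isolated cells).

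Of the 5 activators, 1 (20%) was at least 2-fold higher and 1 (20%) at least 2-fold lower. These shares were near the 22.4% and 25.0% of all measured genes. Psme1 and Psme2 encode PA28 α and β, which form the interferon-inducible cap and lie close together on chromosome 14 (55578494 to 55581527 and 55587440 to 55591101). Psme1 stood at 255 CPM in expanded and 296 CPM in freshly isolated cells, a ratio of 0.862 (interval 0.831 to 0.894). Psme2 stood at 88.4 CPM in expanded and 63.8 CPM in freshly isolated cells, 1.39-fold higher (interval 1.29 to 1.49). The partners of this cap thus differed in direction, and per kilobase Psme1 was at 2.89 times the level of Psme2 in expanded and 4.64 times in freshly isolated cells. Psme3, which encodes the nuclear activator PA28 γ, stood at 417 CPM in expanded and 199 CPM in freshly isolated cells, 2.09-fold higher (interval 2.02 to 2.17). Scaled by total count, its log2 fold was 0.91. Psme4, which encodes PA200, was 1.82-fold higher at 172 CPM in expanded and 94.7 CPM in freshly isolated cells. Psme2b stood at 2.95 CPM in expanded and 7.99 CPM in freshly isolated cells, a ratio of 0.369 (interval 0.272 to 0.496), and was the member at least 2-fold lower. It matched Psme2 at 99.4% over 794 bases, and its whole span lies inside that of Gm12185 on the same strand, which had 112 counts in the expanded and 286 in the freshly isolated library. Its counts, and the division of reads between it and Psme2, are therefore uncertain.

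Compared per kilobase of deposited length, the order of the members shifted between the libraries. In expanded cells the highest levels were those of Psmb8 at 342, Psmb1 at 297 and Psme1 at 264 CPM per kilobase. In freshly isolated cells they were those of Psme1 at 306, Psmb8 at 228 and Psmb1 at 157 CPM per kilobase. Psmb10 ranked 30 of the 50 genes in expanded cells and 8 in freshly isolated cells, and Psmb9 ranked 24 in expanded cells and 7 in freshly isolated cells. Psma1 ranked 9 in expanded cells and 20 in freshly isolated cells, and Psmd14 ranked 7 in expanded cells and 14 in freshly isolated cells. Across the 47 measured members other than Psmc3ip, the log2 levels per kilobase of both libraries had a Pearson r of 0.91 and a Spearman rho of 0.89, given as a description, since all points share the same 2 libraries.

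**Figure D3:**
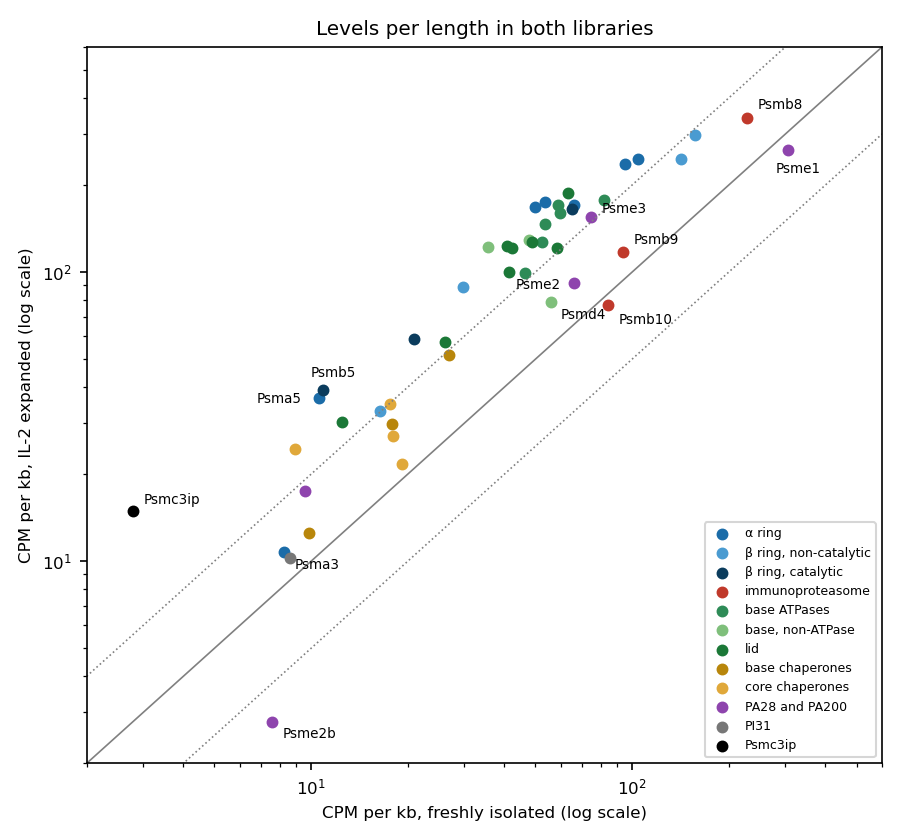
Level of each measured member per kilobase of deposited gene length, in expanded cells (y axis) against freshly isolated cells (x axis), both in CPM per kilobase on log scales, coloured by role; the solid line marks equal levels and the dotted lines 2-fold. Most standard subunits lie above the upper dotted line, while Psmb10 and Psme1 lie just under the solid line.

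Some members have near-identical copies elsewhere in the genome, which can take reads or cause them to be dropped. In the GENCODE M21 transcripts, 10 of the 50 had another locus that matched at 95% identity or more over at least 200 bases, namely Psma3, Psma4, Psma5, Psmb3, Psmb5, Psmc1, Psmd2, Psmd11, Psme2 and Psme2b. The measured genes with the lowest levels per kilobase in both libraries were Psma3 and Psma5 in the α ring and Psmb3 and Psmb5 in the β ring. All 4 are among the 10. Others of the 10 were not low, with Psma4 at 167, Psmc1 at 146 and Psmd2 at 130 CPM per kilobase in expanded cells. Whether the copies lowered any level was not tested. Psma3 stood at 10.7 CPM per kilobase in expanded and 8.25 CPM per kilobase in freshly isolated cells, where the median of the α ring was 170.0 in expanded and 53.5 in freshly isolated cells. Psmb5 stood at 39.1 CPM per kilobase in expanded and 10.9 CPM per kilobase in freshly isolated cells. The levels of all 10 genes with a copy, and the ratio of Psmb8 to Psmb5, are therefore uncertain. Of the 38 measured members without such a copy, 23 were at least 2-fold higher (60.5%, where 22.4% of all measured genes were), with a median log2 fold of 1.12.

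Genes that work with the proteasome outside the symbol pattern were more mixed. Of 13 measured proteasome-associated genes, 5 (38.5%) were at least 2-fold higher and 2 (15.4%) lower (median log2 fold 0.56), against 22.4% and 25.0% of all measured genes. The deubiquitinases that bind the regulatory particle were furthest up, with Usp14 at 212 CPM in expanded and 49.0 CPM in freshly isolated cells (4.33-fold) and Uchl5 at 141 CPM in expanded and 35.5 CPM in freshly isolated cells (3.97-fold). Adrm1, the ubiquitin receptor that recruits Uchl5, stood at 10.2 CPM in expanded and 12.4 CPM in freshly isolated cells. Furthest down were Ublcp1, a proteasome phosphatase, at 5.28 CPM in expanded and 15.2 CPM in freshly isolated cells, and Zfand2a at 41.1 CPM in expanded and 85.0 CPM in freshly isolated cells.

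Among 23 measured genes of ubiquitin and of substrate delivery, 4 (17.4%) were at least 2-fold higher and 2 (8.70%) lower (median log2 fold 0.49). Of all measured genes, 22.4% were higher and 25.0% lower at that bar. The ubiquitin-activating enzyme Uba6 stood at 76.8 CPM in expanded and 23.0 CPM in freshly isolated cells, and Vcp, the segregase that extracts substrates, at 241 CPM in expanded and 80.6 CPM in freshly isolated cells. Rps27a, which fuses ubiquitin to a ribosomal protein, stood at 3.38 CPM in expanded and 11.3 CPM in freshly isolated cells.

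The list of regulators holds genes for NRF1 (Nfe2l1), a factor known to drive proteasome genes when proteasome capacity is short. It also holds genes for the processing enzymes of NRF1 and for its small MAF partners. Its other measured genes are Nfe2l2, Keap1, Nfya, Nfyb, Nfyc, Stat3 and Foxo4, the last at least 2-fold lower. Of 13 measured, 2 (15.4%) were at least 2-fold higher and 3 (23.1%) lower (median log2 fold 0.15), against 22.4% and 25.0% of all measured genes. Nfe2l1 stood at 239 CPM in expanded and 107 CPM in freshly isolated cells, 2.23-fold higher, and Mafg at 35.4 CPM in expanded and 13.9 CPM in freshly isolated cells. Ddi2, the protease that cuts NRF1, stood at 19.5 CPM in expanded and 10.1 CPM in freshly isolated cells, just under 2-fold. The partners Maff (14.6 CPM in expanded and 244 CPM in freshly isolated cells) and Mafk (53.6 CPM in expanded and 210.4 CPM in freshly isolated cells) were furthest down.

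In the list of the interferon axis, 3 of 17 genes (17.6%) reached 2-fold higher and 7 (41.2%) reached 2-fold lower levels (median log2 fold -0.75). Over all measured genes these shares were 22.4% and 25.0%. Irf1, a factor known to drive immunoproteasome genes, stood at 97.9 CPM in expanded and 678 CPM in freshly isolated cells, and the receptor gene Ifngr2 at 2.24 CPM in expanded and 70.9 CPM in freshly isolated cells. Irf8 was the member furthest up, at 382 CPM in expanded and 45.8 CPM in freshly isolated cells, followed by the chaperone gene Calr at 2816 CPM in expanded and 703 CPM in freshly isolated cells. Tap1, the peptide transporter gene beside Psmb9, stood at 284 CPM in expanded and 325 CPM in freshly isolated cells, and Tap2 at 214 CPM in expanded and 238 CPM in freshly isolated cells.

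**Figure D4:**
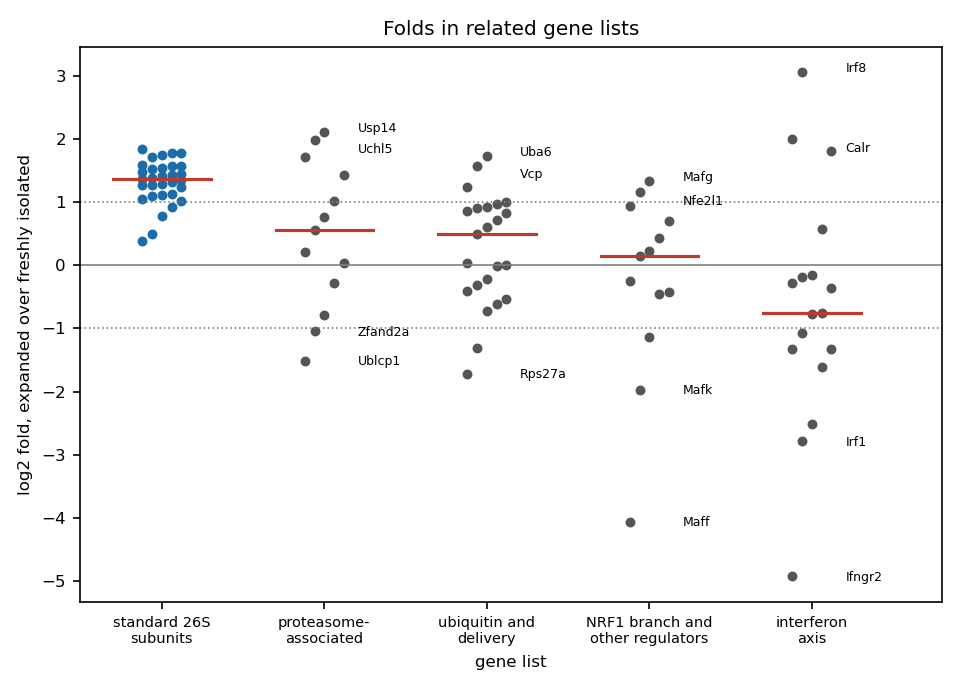
Log2 fold, expanded over freshly isolated (y axis, prior count 2), of the 31 standard core, ATPase, base and lid genes (blue) and of measured genes in 4 related lists (grey), with the median of each (red line); dotted lines mark 2-fold. The standard subunits have a median of 1.37, against 0.56, 0.49, 0.15 and -0.75 in the lists from left to right.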

How the data were processed

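RNA-seq of total RNA was deposited as 1 table of read counts per gene, whole numbers that the authors had not normalised, with 1 column per library. Per the submitters' processing notes, the build was mm10 (GRCm38) and the tools included the aligner STAR 2.6.0 and the read counter HTSeq 0.6.0. The annotation release and the use of strand are not given in the sources used here. Columns were matched to libraries by title. Counts were divided by library sizes scaled with TMM (edgeR 4.0.16, R 4.3.3) to give CPM. Levels per kilobase use the gene length that the authors deposited, and log2 folds have a prior count of 2. Folds printed for single genes are plain ratios of CPM. Total counts of 22204099 and 20379385 set the precision, and no use of molecular identifiers is stated, so reads may not be independent and intervals cover counting error only. The members and lists were chosen with earlier results of these data known. All genes that the symbol pattern takes may be named, with the 2 furthest up and 2 furthest down of each list; other named genes of the lists were chosen after their values were seen, and some results are not reported here. Copies were sought with blastn. The fold calculation was run on simulated counts with known folds and known scaling. These held counting error only, so the run could not check replicate error or the scaling. Alternatives were 4 other scalings (DESeq2 1.42.0 size factors among them), 2 prior counts, 2 filters and a bar of 1.5-fold.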

Additional observations from a re-analysis of the deposited data

How the results depend on the processing

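No member changed the sign of its log2 fold under the 4 other scalings and 2 other prior counts, and 219 of 288 values for single genes lay within the counting interval of the main value. The number of members at least 2-fold higher was 24 with scaling by total count, 37 at a bar of 1.5-fold and between them under the other scalings, prior counts and filters, against 30. The counts for core (10 to 13), ATPases (4 to 6) and Psmd genes (8 to 12) stayed within 1.5 times of their main values under every alternative run. Scaling by total count moved the median of all genes by -0.16 on the log2 scale and the members' median to 1.03, and leaving out the 50 most abundant genes of each library gave 1.11. Under total count, upper quartile and that last scaling 0 activators were at least 2-fold higher, since Psme3 lay close to the bar, and at 1.5-fold 2 were. At 1.5-fold 1 immunoproteasome gene (Psmb8) was higher. Chosen after the data were seen, leaving out members with a near-identical copy left 0 members at least 2-fold lower. The difference in immunoproteasome share, expanded minus freshly isolated, was -15.4 percentage points over all pairs, -4.25 for Psmb8 with Psmb5, -17.5 for Psmb9 with Psmb6, -27.2 for Psmb10 with Psmb7, and -13.7 per kilobase, the last also chosen after the data were seen. Percentage points are compressed for a share near the top of its range, as for Psmb8 with Psmb5. As ratios of immunoproteasome to standard counts, freshly isolated over expanded, the 3 pairs gave 2.40, 2.05 and 3.06 in that order. Why the pairs differ was not tested. No paired analysis was possible because each group has 1 library. Without replicates, depth shows counting error only.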
